A study of Arabidopsis thaliana with 10 samples.

Results

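The 9114 regions of the H3K27ac peak list of *Arabidopsis thaliana* inflorescences at stage 4 (S4), collected 4 days after the start of floral induction, are described here, out of 38540 regions in the 4 lists of the series. Every region that the authors placed in the S4 list was taken as a member. H3K27ac was measured by ChIP-seq in the accession Ler, in plants of the genotype pAP1::AP1-GR *ap1 cal*, at S4 (labelled stage 4-5 of flower development) and at S0 (inflorescence meristem), S2 (stage 2) and S8 (stage 7-8), with 2 replicate libraries per stage and 2 input libraries whose labels give stages 2 and 4. All of these plants lack functional AP1 and CAL and carry AP1 fused to the glucocorticoid receptor under the AP1 promoter, so that flowers form together only where that promoter is active and after daily dexamethasone, whereas S0 was taken before the first application. The S4 list is 1 call on both pooled replicates against the combined inputs. It therefore holds no value per replicate, and no difference between S4 and another stage could be set against a spread between replicates.

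Acetylation of lysine 27 on histone H3 is laid down by histone acetyltransferases and removed by deacetylases, and it is known as a mark of transcribed or transcription-ready chromatin. In animals it is found at active promoters and enhancers, and in *Arabidopsis* it is mostly known from the start of active genes. In bulk inflorescences a mark on fewer cells and less of the mark per cell cannot be told apart. By stage 4 the sepal primordia of an *Arabidopsis* flower are growing over the floral meristem, and the floral homeotic genes have begun to specify the inner organs.

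The S4 peaks had a median width of 768.5 bp (quartiles 616 and 975 bp) and together covered 6.43% of the 5 nuclear chromosomes. The fold enrichment over the input at the summit, as the authors deposited it, had a median of 2.90 and ran between 1.45 and 11.3, and the −log10 p had a median of 22.8. The lowest −log10 q was 10.01, and the authors kept only peaks reproducible between replicates. A gene without a peak is therefore not a gene shown to lack the mark. Library depth cannot be read from the list. Intervals given below for shares are 95% Wilson intervals over peaks or genes, and those for medians are binomial; both cover counting error only. The reads come from Ler and the coordinates are those of TAIR10, so a gene that differs between accessions may have lost reads. Of the 9 marker genes of the labelled tissue 3 carried an S4 peak (LFY, AP1 and SEP1), and UFO, AP3, PI, AG, SEP2 and SEP3 did not. Of the 8 seed, pollen and root markers (CRA1, CRU3, SESA1, OLEO1, VGD1, WOX5, CASP1 and EXPA7) 0 did, with an interval of up to 32.4%. As 32.1% of all protein-coding genes carried an S4 peak, neither count tells the tissue apart.

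Of the 20 highest peaks outside repeated sequence 16 had their summit in a coding exon. The following windows of 81 bp are shown because the highest peaks had more coding-exon summits and more G and C than the lowest. Each is centred on an S4 summit and written 5′ to 3′ on the strand of the gene (TAIR10.1 coordinates), with G and C in capitals. GATA1, AT5G62560 and ADT5 had the highest peaks, ASIL2 had the summit richest in G and C among the coding-exon summits of the 20 highest peaks, and these windows lie wholly within a coding exon. AT1G56220 was the only one of the 20 with its summit in an intron, and its window lies wholly within it.
GATA1 (chr3:8687039-8687119, plus strand): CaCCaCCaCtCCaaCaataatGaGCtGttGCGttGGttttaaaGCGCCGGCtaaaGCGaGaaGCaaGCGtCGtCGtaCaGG
AT5G62560 (chr5:25111282-25111362, plus strand): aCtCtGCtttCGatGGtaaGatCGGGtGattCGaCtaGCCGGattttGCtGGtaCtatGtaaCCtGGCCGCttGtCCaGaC
ADT5 (chr5:7525190-7525270, plus strand): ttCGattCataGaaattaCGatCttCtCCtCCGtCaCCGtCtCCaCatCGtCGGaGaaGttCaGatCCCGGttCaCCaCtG
ASIL2 (chr3:4708407-4708487, minus strand): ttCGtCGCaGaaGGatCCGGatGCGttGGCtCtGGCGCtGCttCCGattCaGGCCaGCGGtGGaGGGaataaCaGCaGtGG
AT1G56220 (chr1:21043591-21043671, plus strand): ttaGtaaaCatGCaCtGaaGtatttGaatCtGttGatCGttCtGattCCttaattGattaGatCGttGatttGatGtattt
In these windows G and C made up 51.9% of the bases at GATA1, 50.6% at AT5G62560, 49.4% at ADT5 and 60.5% at ASIL2, against 29.6% at the intronic summit of AT1G56220. As ASIL2 was picked for its composition and AT1G56220 for its intron, the contrast between them is no measure of the list.

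The mark sat just inside genes. Of the 9114 summits, 8819 (96.8%, interval 96.4 to 97.1) lay in the body of a protein-coding gene, 81 (0.889%) in the 1 kb upstream of one, and 214 (2.35%) farther away. The median intragenic summit was 392 bp inside the gene that holds it, counted from the annotated start (interval 387 to 396), with quartiles at 306 and 536 bp, and 79.3% of them lay between 150 and 600 bp from it. Only 128 (1.45%) lay within 150 bp of the gene start. As a share of gene length, the median summit was 16.6% of the way along, and 92.7% of summits lay before the midpoint of their gene. The gene start used is the outermost annotated one, and where a gene has several starts the distance to the one in use can be shorter.

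**Figure D1:**
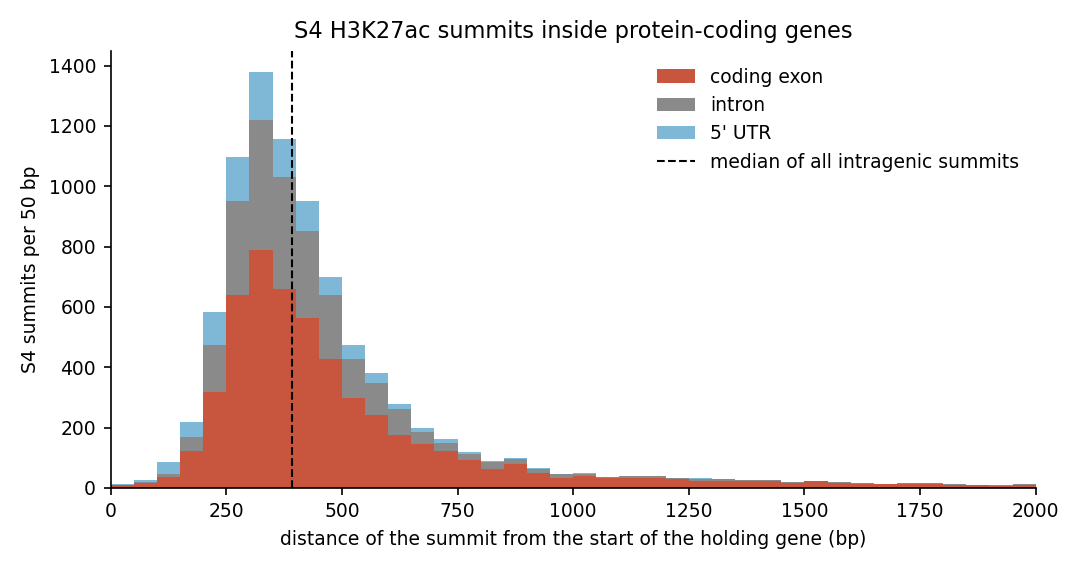
Distance of S4 summits from the start of the protein-coding gene that holds them, in bins of 50 bp up to 2000 bp, stacked by the part of the gene at the summit (coding exon, intron or 5′ UTR of 1 transcript per gene). The dashed line marks the median of 392 bp, and few summits lie in the first 150 bp.

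The peaks themselves began close to the gene start and ran downstream. Their 5′ edge was at a median of 76 bp from it (quartiles 1 and 174 bp) and their 3′ edge at a median of 852 bp (quartiles 686 and 1104 bp). In all, 2197 of the intragenic peaks (24.9%) covered the gene start, and 317 (3.60%) reached 200 bp or more upstream of it. Only 175 (1.98%) reached the 3′ end of the gene. Summits sat a median of 327 bp from the 5′ edge and 425 bp from the 3′ edge, so the typical peak was longer on its 3′ side.

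Placed on 1 transcript per gene, 5383 intragenic summits (61.0%, interval 60.0 to 62.1) fell in coding exons, 2396 (27.2%, 26.2 to 28.1) in introns and 960 (10.9%, 10.2 to 11.6) in 5′ UTRs. A further 41 (0.465%) were in 3′ UTRs and 39 (0.442%) outside the transcript chosen. Exon 1 held 59.2% of intragenic summits, intron 1 held 23.5%, exon 2 held 10.5% and intron 2 held 2.88%. Of the summits in introns, 2077 (86.7%) were in intron 1.

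Distance alone gives a different make-up. Among bases of S4-marked genes at the same distances from the gene start (summits within 2000 bp), 50% were coding, 28.6% intronic and 19.0% in 5′ UTRs, and among those of all protein-coding genes 54.6% were coding, 28.3% intronic and 13.6% in 5′ UTRs. S4 summits were thus on coding sequence more often, and on 5′ UTR less often, than bases at their distances, while the intron share was within 2 percentage points of both backgrounds. The gap changed with distance. From 150 to 300 bp, 16.0% of summits were in 5′ UTRs, against 43.1% of bases of marked genes, and 26.5% were in introns, against 13.8% of bases. From 600 to 1000 bp, 71.4% of summits were in coding exons, against 54.3% of bases, and 22.5% were in introns, against 38.5% of bases. From 1000 to 2000 bp the coding share of summits was 83.9%, against 53.3% of bases. Close to the start, then, summits fell in introns more often than bases do, and beyond 450 bp less often.

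Base composition differed between these parts. The window of 100 bases on each side of a summit had a median G and C content of 46.8% in coding exons, 36.8% in introns and 38.6% in 5′ UTRs. Over all intragenic summits within 2000 bp the mean was 43.1%, against 40.8% (marked genes) and 39.9% (all protein-coding genes) at the same distances. In 5979 of the 9114 peaks (65.6%) the summit window held more G and C than the whole peak. Whether the composition of the sequence had a part in the placing of summits was not tested.

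The part of the gene changed with peak height. When the 8953 peaks outside repeated sequence were ranked by fold enrichment, 58.2% of intragenic summits in the lowest decile were in coding exons and 30.0% in introns. In the highest decile (fold enrichment of 4.11 and more), 80.3% were in coding exons, 14.8% in introns and 4.14% in 5′ UTRs. Most of this change lay in the top 3 deciles, where the coding share was 64.2%, 69.8% and 80.3%, and between the second and the seventh decile it stayed between 53.4% and 59.1%. Single-exon genes, which have no intron, held 28.6% of intragenic summits in the highest decile and 11.8% in the lowest. Within genes of several exons the coding share was still 74.2% in the highest decile and 53.7% in the lowest, and the intron share 20.8% and 34.0%. Bases at the same distances in marked genes were 51.3% coding in the highest decile and 49.6% in the lowest.

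Other features of the highest decile differed as well. Its median G and C content at the summit was 48.3%, against 41.8% in the lowest decile. Among coding-exon summits alone the 2 deciles had 49.8% and 45.3%, and among intron summits alone 37.8% and 37.3%. Its median summit distance was 472 bp, against 375 bp, and 33.3% of its summits lay over 600 bp from the gene start, against 18.9%. Its peaks were wider (median 1034 bp, against 643.5 bp) and its genes shorter (median 2174 bp, against 2654 bp). Peaks overlapping a peak at each of S0, S2 and S8 made up 99.8% of the highest decile and 37.9% of the lowest. Distance stood out mainly at the top: in deciles 1 to 8 its median stayed between 371 and 396 bp. Across intragenic peaks Spearman's rho between fold enrichment and distance was 0.109. Base composition, gene structure and width also differed with fold enrichment, and the parts of these features in it were not tested.

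**Figure D2:**
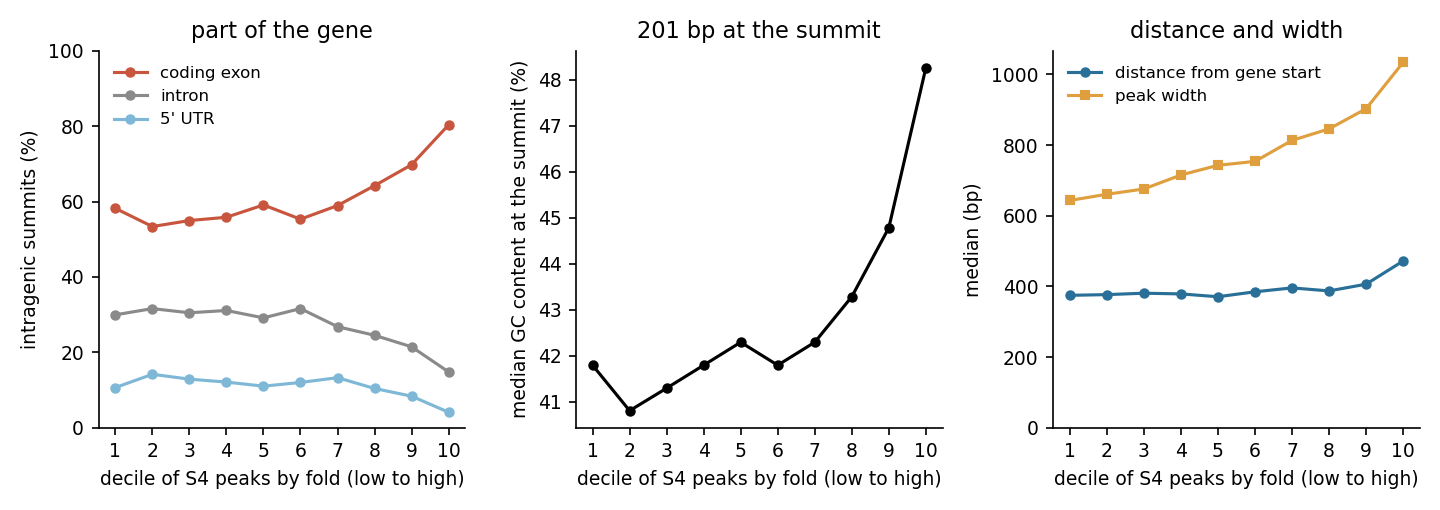
S4 peaks outside repeated sequence in deciles by fold enrichment, from the lowest (1) to the highest (10). Left, percent of intragenic summits in coding exons, introns and 5′ UTRs; middle, median G and C content of the window of 100 bases on each side of the summit, on an axis that does not start at 0; right, median summit distance from the gene start and median peak width in bp. The coding share was 58.2% in the lowest decile and 80.3% in the highest.

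Across all S4 peaks, Spearman's rho was 0.424 between fold enrichment and width, 0.952 between fold enrichment and −log10 p, and 0.192 between fold enrichment and G and C content. These are descriptions of 1 pooled list, and neighbouring peaks share reads and sequence. Within coding-exon summits rho between fold enrichment and G and C content was 0.202, within intron summits 0.0502.

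GATA1, which encodes a zinc finger transcription factor of the GATA family, carried the highest peak of the list. Its fold enrichment was 11.3, the peak spanned 1865 bp (chr3:8685867-8687731, gene at 8685739 to 8687726), and the summit lay 1340 bp from the gene start in exon 2, within the coding sequence shown above. At S0, S2 and S8 the highest peak of GATA1 stood at percentiles 99.99, 99.99 and 99.98 of the fold enrichments of those lists (a percentile is the percent of peaks in a list below a value, with ties counted by their middle rank).

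Next in rank were AT5G62560, a RING/U-box protein with ARM repeats, at 10.6 (chr5:25109974-25111744, summit 1482 bp from the start of its only exon), and ADT5, an arogenate dehydratase that makes phenylalanine, at 10.3 (chr5:7524662-7525926, 1144 bp). AT3G13440, annotated as a methyltransferase, followed at 9.71 (chr3:4377068-4378456). Its summit was in the 5′ UTR 399 bp from the gene start, where the annotation also places the pseudogene SADHU7-1. ASIL2, a DNA-binding transcription factor, reached 9.32 (chr3:4707511-4708913), with its summit 729 bp into a single-exon gene.

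Ranks 6 to 10 were held by AT4G05150, with an Octicosapeptide/Phox/Bem1p domain, at 8.815 and AT4G38660, a thaumatin family protein, at 8.41. They were followed by the pair AT1G13350 and AT1G13360 at 8.27, by AT3G25870, an uncharacterized protein, at 8.16, and by AT1G56220, of the dormancy/auxin associated family, at 7.97. The peak of the pair was given to the kinase gene AT1G13350, whose start is nearest (769 bp), but its summit lies inside AT1G13360, 889 bp from that gene's start in coding exon 1. AT1G56220 is the only gene of the first 20 whose summit lay in an intron, and its summit window was also the poorest in G and C (33.3% of its bases).

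Ranks 11 to 20 ran from 7.90 to 7.48. They held AT1G79485, RAP2.4, AT5G24430, AT4G04925, SMT2, NRP1, PLAT3, AT3G51950, SRS8 and ERF7. RAP2.4 and ERF7 are factors of the AP2/ERF family, SMT2 is a sterol methyltransferase, AT5G24430 is annotated as a calcium-dependent protein kinase and AT3G51950 as a CCCH zinc finger and RNA-binding protein. For PLAT3 and SRS8 the nearest start is again not the gene at the summit: the PLAT3 peak has its summit in exon 3 of TPR14, a tetratricopeptide repeat gene, and the start of SRS8 is 33590 bp from a summit on the transcribed pseudogene AT5G33251.

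The summits of these 20 peaks lay a median of 786 bp from the nearest gene start (quartiles 546 and 1376 bp), 14 of the 20 lay over 600 bp from it, and 16 were in coding exons. For AT1G13350, PLAT3 and SRS8 that start is not the one of a gene holding the summit. They had a median width of 1202 bp and a median G and C content at the summit of 52.2%. All 20 genes also carried a peak at S0, S2 and S8. At each of these stages 19 of the 20 stood at or above percentile 99 of the list. The exceptions were AT1G13350 at S0 (percentile 15.6), SRS8 at S2 (97.5) and AT3G51950 at S8 (98.8). AT1G13350 was given 2 peaks at S4 and 1 at S0, and its highest S4 summit lies in AT1G13360. Its S0 value may therefore belong to another peak.

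**Figure D3:**
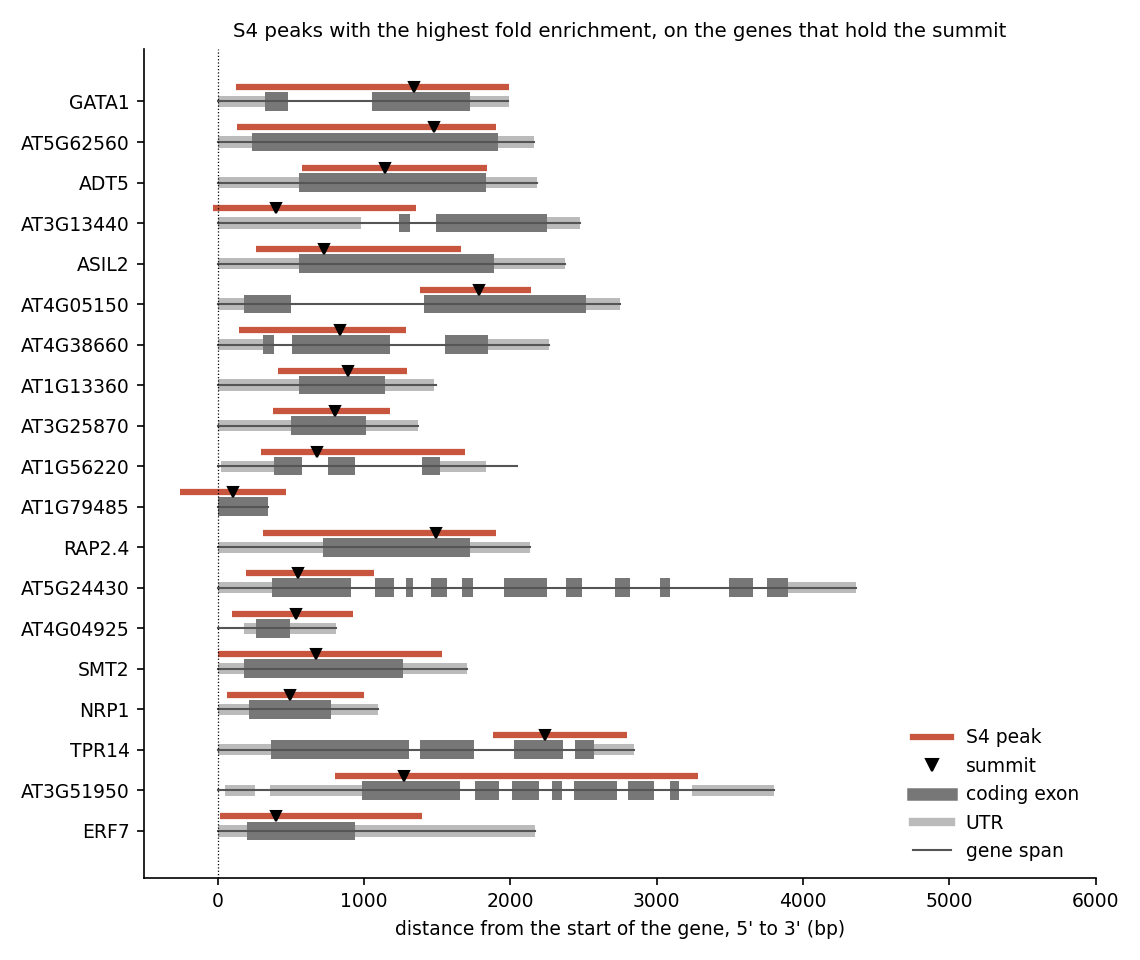
The S4 peaks with the highest fold enrichment in rank order from the top, each on the gene that holds its summit, with distance in bp from the gene start and all genes drawn 5′ to 3′. Red bars are S4 peaks, triangles summits, dark boxes coding exons and light boxes UTRs; the peak nearest to SRS8 is left out because its summit lies in no protein-coding gene. At GATA1, AT5G62560, ADT5 and RAP2.4 the summit lies over 1000 bp into the gene.

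By −log10 p the first 5 genes outside repeated sequence were AT3G32980 (318.5), GATA1 (280.9), AT3G13440 (265.7), AT5G62560 (237.7) and AT4G38660 (232.4). AT3G32980, a peroxidase gene, is only the nearest gene to its peak, at 58988 bp, and 40.6% of the 32-mers at that summit were repeated. Repeated sequence, where at least 50% of the 32-mers around the summit occur elsewhere in the genome, held 157 of 9110 readable summits (1.72%), including 7 of the 10 highest −log10 p and none of the 10 highest fold enrichments. The genes with the most peaks assigned to them reflect such regions: AT5G30520 had 21, all distal and 65515 to 99223 bp away, of which 13 were on repeated sequence.

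Peak width ranged from 200 to 13781 bp, and 96 peaks (1.05%) were 2 kb or more. The widest outside repeated sequence lay on BAM1 (3413 bp), a receptor kinase related to CLV1, on EMB2769 (3367 bp), a splicing-related protein gene, and on AT1G75640 (3251 bp), a leucine-rich repeat receptor kinase. AT5G01895 (3247 bp, with the summit in coding exon 1 of AT5G01890) and TIC (3148 bp), a component of the circadian clock, came next. BAM1 had a summit only 494 bp from its start, and its peak covered most of the 3772-bp gene. The EMB2769 peak lay mostly upstream: its 5′ edge was at -2713 bp relative to the gene start, the lowest value of all intragenic peaks. The narrowest peaks, of 200 bp each, lay on CLP2, BZO2H3 and AT2G41705, with fold enrichments of 2.36, 2.49 and 2.45. A letter that MACS2 gives to 1 of several summits in a region was carried by 4138 peaks (45.4%). The list keeps 1 summit for each region, so other summits of these regions are not described. These peaks had a median width of 953 bp and a median summit distance of 426 bp, against 663 bp and 370 bp in regions with a single summit.

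Summits deep inside genes were few, and many were nearer to the start of another gene. Over 2000 bp from the start of the holding gene there were 161 (1.83%). For 93 of them (57.8%, interval 50.04 to 65.1) the nearest gene start was that of another gene. Over all intragenic summits the start of the holding gene was nearest for 95.3%. The matching share of gene bases at such distances is not given, so 57.8% cannot be set against a background. The 3 farthest summits were in intron 37 of the myosin gene XIB, in exon 39 of XIF, another gene of that family, and in ATM1. They were 897 bp upstream of EIF2 GAMMA, 1144 bp upstream of RAP and 1183 bp upstream of AT3G19970. The nearest to a gene start were in AT5G11425, AT3G14981 and AT1G48460, at 3, 13 and 21 bp. The first 2 of these genes are annotated at only 210 and 219 bp.

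By the nearest gene start, 8816 of 27444 protein-coding genes had an S4 peak (32.1%), and 8586 of them (97.4%) had 1 peak only. Genes with an S4 peak had a median length of 2466 bp (quartiles 1811 and 3372 bp), and genes without one 1856 bp (1114 and 2824 bp). Their median number of exons was 5, against 3, and 14.1% of them had a single exon, against 23.4%. Summed exon length was 1726 bp at the median, against 1350 bp, and coding length 1173 bp, against 985.5 bp. The difference in length was steepest among short genes. In the shortest decile of genes (up to 770 bp) 7.36% had an S4 peak, in the second 14.7%, in the third 24.4%, and in the fifth 35.4%. From the sixth decile on (2078 bp and more) the share stayed between 40.5% and 42.8%. By exon number, 22.1% of single-exon genes, 35.8% of genes with 4 to 6 exons and 43.2% of genes with 11 or more had a peak. Among marked genes, the median fold enrichment was 3.04 in the second decile of gene length and 2.77 in the longest. Genes are not independent replicates, and these values are given without a test.

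Chromosomes differed little. The share of protein-coding genes with an S4 peak was 31.3% to 33.2% on the 5 chromosomes, and the density 71.3 to 79.3 peaks per Mb. The longest stretch without a peak was on chromosome 3 (chr3:11979646-13492968, 1513 kb, with 55 protein-coding genes).

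What marked genes encode varied widely around that background of 32.1%. Genes of the protein-making machinery stood far above it. Of 328 genes with ribosomal protein in the product name (plastid and mitochondrial names left out) 240 (73.2%, interval 68.1 to 77.7) had an S4 peak, and of 114 for translation initiation and elongation factors 64 (56.1%, 47.0 to 64.9). The ribosomal protein genes are short (median 1561 bp), so their share also stands above that of genes of their own length (31.2% in the decile of 1489 to 1789 bp). Their summits lay closer to the gene start (median 298 bp) and more often in introns (45.6%) than those of the whole list. RPL27AB at 7.03 and AT4G37660 at 6.05 had the highest peaks of the class, although AT4G37660 is annotated as an L12 or ClpS adaptor family protein, which may not belong to the cytosolic ribosome, and EIF3G1 at 5.37 and AT1G45332 at 4.59 those of the translation factors.

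Photosystem, light-harvesting and RuBisCO small subunit genes lay between these 2 classes, with 45 of 71 (63.4%, interval 51.8 to 73.6). PSBTN at 5.06 and PSAD-1 at 4.90, both parts of photosystems, led them. Core histone genes had 21 of 47 (44.7%, 31.4 to 58.8), led by the H3 genes AT4G40040 at 5.35 and AT5G10980 at 4.76. Auxin response factor and Aux/IAA genes had 19 of 45 (42.2%, 29.0 to 56.7), with ARF10 at 6.33 and ARF6 at 5.86. Cyclins and cyclin-dependent kinases, with 27 of 80 (33.8%, 24.4 to 44.6), and receptor-like and leucine-rich repeat kinases, with 96 of 328 (29.3%, 24.6 to 34.4), had shares near the background. The intervals of these last 4 classes, core histones to kinases, all held the background share. Among the latter BRI1, the brassinosteroid receptor, reached 5.745 and RLK4 5.33, and the peaks of this class were wide (median 1044 bp). Among cyclin genes CYCD3;2 reached 5.25, whereas the peak nearest to CDKD1;1, at 6.77, lay 1571 bp from it on the microRNA gene MIR159a.

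The 5 remaining classes stood below the background. F-box protein genes had 70 of 653 (10.7%, interval 8.57 to 13.3), TIR-NBS and NB-ARC resistance genes 17 of 159 (10.7%, 6.78 to 16.5), MADS-box genes 9 of 120 (7.50%, 4.00 to 13.6), cytochromes P450 16 of 248 (6.45%, 4.01 to 10.2) and defensins and small cysteine-rich proteins 3 of 260 (1.15%, 0.393 to 3.34). The resistance genes are long (median 4227 bp) and the defensin genes short (median 552 bp). Members with the highest peaks were AUF1 (7.13) and AT1G70590 (5.36) among F-box genes, CYP86A8 (6.73) and CYP721A1 (4.40) among cytochromes P450, and AT4G23440 (3.32) and AT1G61310 (3.18) among resistance genes. AGL65 (3.97) and AGL31 (3.965) led the MADS-box genes, but the summit given to AGL65 lay 441 bp upstream of it, on the ncRNA gene AT1G18745. LCR43 (3.30) and AT1G60995 (3.13) led the class of defensins and small cysteine-rich proteins, but the summit given to LCR43 lay in AT3G07010, 2112 bp away. AT1G60995 is annotated as an S3 self-incompatibility locus-linked pollen protein and spans 5269 bp, so it may not belong to this class.

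**Figure D4:**
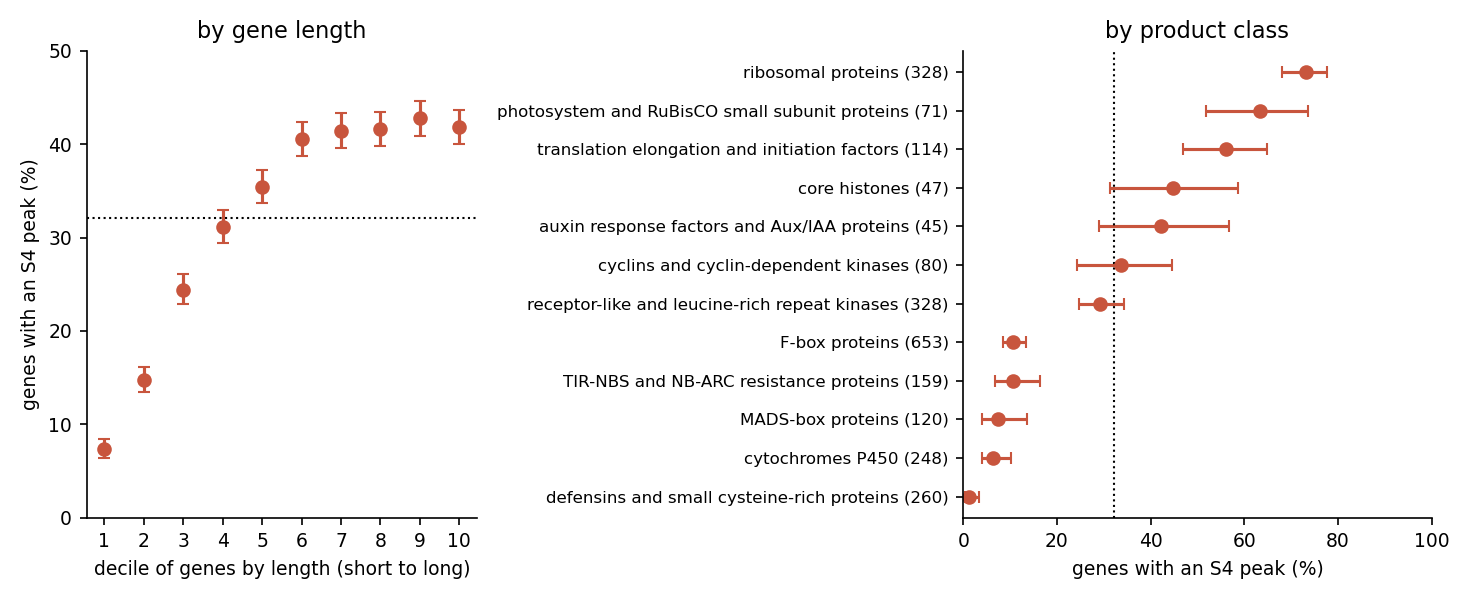
Percent of protein-coding genes with an S4 peak. Left, deciles of genes by length, short to long; right, 12 classes by product name with the number of genes in brackets. Points are shares, bars 95% Wilson intervals over genes, and the dotted line is the share of all protein-coding genes, 32.1%. Ribosomal protein genes reach 73.2% and defensins 1.15%.

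The upstream sequence of marked genes differed modestly from that of other genes. Within the 250 bases before the gene start, on either strand, the site II element (TGGGCC or its variant TGGGCT) was found in 2117 of 8815 marked genes (24.02%, interval 23.1 to 24.9), against 3147 of 18628 unmarked genes (16.9%, 16.4 to 17.4) and 19.2% of all 27443 genes with a full window. The TATA box (TATAAA) was in 44.2% of marked genes, against 48.8% of unmarked and 47.4% of all genes. Other motifs differed by under 2 percentage points: the telo-box (AAACCCTA) was in 3.94% of marked genes, against 4.75% of unmarked and 4.49% of all genes, the GAGA element (GAGAGA) in 19.6%, against 21.0% and 20.6%, and the G-box (CACGTG) in 7.17%, against 6.16% and 6.49%. A loose form of the CArG box (CC and GG with 6 bases of any kind between them, not only A or T) was in 18.8%, against 16.8% and 17.5%. These are therefore not counts of CArG boxes. GATAAG was in 12.1%, against 12.4% and 12.3%. A site II copy and a telo-box can overlap, as in the RPS5A promoter.

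Ribosomal protein genes held the site II element and the telo-box more often than all genes did. Of 328, 189 (57.6%, interval 52.2 to 62.9) had a site II element in either form and 53 (16.2%) a telo-box, against 19.2% and 4.49% of all genes, and among the 240 with an S4 peak 145 (60.4%) and 35 (14.6%). By peak height, the site II element was found in 18.7% of marked genes in the highest decile by fold enrichment and 25.8% in the lowest. Both elements together were found in 40 of the 328 (12.2%) and in 26 of the 240 with an S4 peak (10.8%), against 1.36% of all genes. The promoters printed here are therefore not typical of the class. They belong to 2 of the marked ribosomal protein genes with the highest peaks among those that hold both elements and overlap no other annotated gene. They run from shortly before the first element to the base before the gene start, on the strand of the gene, with both elements in capitals on either strand.
RPS5A (chr3:3779546-3779599, minus strand): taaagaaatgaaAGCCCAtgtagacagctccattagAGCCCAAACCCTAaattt
AT5G15200 (chr5:4936430-4936579, minus strand): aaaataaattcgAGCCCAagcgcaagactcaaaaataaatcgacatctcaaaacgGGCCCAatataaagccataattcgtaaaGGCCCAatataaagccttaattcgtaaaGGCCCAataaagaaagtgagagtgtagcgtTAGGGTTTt
RPS5A had an S4 peak of 4.62 with its summit 286 bp downstream in intron 2, and AT5G15200, a ribosomal protein S4 gene, one of 4.43 with its summit 364 bp downstream in intron 1. A match of these letters is not evidence that a factor is bound there.

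Summits outside protein-coding genes often lay on another kind of gene. Of 225 such summits outside repeated sequence, 152 (67.6%, interval 61.2 to 73.3) were on an annotated gene of another type, at a median of 262 bp from its start. By fold enrichment the first 5 were the transcribed pseudogene AT5G33251 (7.49), MIR159a (6.77), the pseudogene SADHU1-2 (6.19), the transcribed pseudogene AT5G24065 (5.87) and the noncoding RNA gene AT3G54366 (5.83). They lay on 164 genes, 1.57% of the 10455 annotated genes that are not protein-coding, some of which lie inside protein-coding genes. By type these were 48 of 3480 lncRNA genes (1.38%), 29 of 221 genes annotated as ncRNA (13.1%), 25 of 3917 pseudogenes (0.638%), 24 of 287 snoRNA genes (8.36%), 20 of 926 transcribed pseudogenes (2.16%), 12 of 508 misc_RNA genes (2.36%) and 6 of 326 miRNA genes (1.84%). How much of the sequence outside protein-coding genes these types cover is not given, so the 67.6% has no background.

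Of 326 annotated miRNA genes 8 held an S4 summit, of which MIR472 and MIR4245 lie within protein-coding genes, and 31 were overlapped by a peak. MIR159a had the highest, with a fold enrichment of 6.77 (percentile 99.6) and a peak of 1010 bp (chr1:27712694-27713703). MIR319a followed at 4.01 with 1388 bp, then MIR168a at 3.47 with 1049 bp, MIR161 at 3.38, MIR4245 at 3.29, MIR472 at 2.63, MIR5641 at 2.56 and MIR159b at 2.40 with 1160 bp. miR159 represses GAMYB-like MYB factors, miR319 TCP factors of leaf and petal growth and miR168 AGO1. The mature sequences of these precursors, as DNA letters read at the coordinates of the annotation with bases 2 to 8 in capitals, show that both miR159 genes share a seed and that miR319a has another within a similar sequence.
ath-miR159a (chr1:27713234-27713254, minus strand): tTTGGATTgaagggagctcta
ath-miR159b-3p (chr1:6220813-6220833, plus strand): tTTGGATTgaagggagctctt
ath-miR319a (chr4:12353109-12353129, plus strand): tTGGACTGaagggagctccct
ath-miR168a-5p (chr4:10578652-10578672, plus strand): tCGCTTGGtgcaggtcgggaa
The peaks on MIR159a, MIR159b and MIR168a overlapped a peak at S0, S2 and S8. That on MIR319a overlapped one at S0 and S2 and none at S8.

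Among regulators of flowering and flower development, 24 of 95 genes in 6 lists had an S4 peak (25.3%, interval 17.6 to 34.8), against 32.1% of all protein-coding genes. At the other stages the same lists had 32 genes at S0 (39.5% of all protein-coding genes had a peak there), 28 at S2 (30.6%) and 24 at S8 (32.6%). Of the 24 genes at S4, 21 also had a peak at S2 and 16 at S8. Of all protein-coding genes with an S4 peak, 80.8% had one at S2 and 84.2% at S8. Their median fold enrichment percentile in the S4 list was 53.4, and their median peak width 1039 bp, against 768.5 bp over all peaks. Fold enrichments below are those of the S4 list, with percentiles within each stage's own list, since lists called separately do not share a scale.

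Floral meristem and organ identity genes with an S4 peak were LFY, AP1, FUL, AP2, SEP1 and SEP4, 6 of 19 (31.6%, interval 15.4 to 54.0). That share is near the background of 32.1%. AP2, which specifies the outer organs and restrains AG, had the highest at 4.78 (chr4:17400854-17401747, 627 bp into coding exon 1). It stood at percentile 95.6 at S4, and at 91.9, 83.7 and 91.3 at S0, S2 and S8. FUL, a MADS-box relative of AP1, had 2.97 with its summit in intron 1 (percentile 55.1, against 86.3 at S0 and 89.5 at S2, with no peak at S8). SEP4 had 2.77 and likewise no peak at S8.

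AP1 had a fold enrichment of 2.56 and a width of 1440 bp (chr1:25984853-25986292, summit 278 bp into coding exon 1). Among the fold enrichments of its own list AP1 stood at percentile 0.272 for S0, 0.447 for S2, 27.6 for S4 and 57.8 for S8. By −log10 p (32.9) the S4 peak of AP1 stood higher, at percentile 73.0 of the S4 list. The plants also carry the AP1-GR transgene under the AP1 promoter, so reads of the locus and of the transgene cannot be told apart. LFY, which activates AP1, had 2.33 over 1273 bp, near the bottom of the list (percentile 8.42), with a peak at S2 and none at S0 or S8.

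SEP1, a MADS-box partner of the organ identity factors, had a narrow peak of 312 bp in intron 1, with a fold enrichment of 2.42. It stood at percentile 15.5 of the S4 list, against 88.6 at S8, where the SEP1 peak was 1163 bp wide, and there was no peak on SEP1 at S0 or S2. CAL, UFO, AP3, PI, AG, SEP2, SEP3, AGL6, SHP1, SHP2, STK, SUP and CRC had no S4 peak. AP3, SEP2 and SEP3 had one at S8, and AGL6 at S0.

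Among flowering time and inflorescence genes 2 of 16 had an S4 peak (12.5%, interval 3.50 to 36.0, which held the background of 32.1%). They were FD, the bZIP partner of FT, at 2.97 in intron 1, and TOE1, an AP2-type repressor of flowering, at 2.955 in coding exon 1 over 322 bp. Neither had a peak at S8. SVP, AGL24, SOC1, FLC, TFL1, FT, TSF, TEM1, TEM2, SPL3, SPL9, SPL15, TOE3 and SMZ had none at S4. Of these, AGL24 and SOC1 had a peak at S0 only, SVP at S0 and S2, SPL3 and SPL9 at S0 and S8, and TEM1 at S0, S2 and S8.

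Meristem genes with an S4 peak were CLV1, KNAT2, KNAT6 and BLR, 4 of 12 (33.3%, interval 13.8 to 60.9). That share is near the background of 32.1%. CLV1, a receptor kinase that limits the stem cell pool, had 4.03 over 1574 bp (percentile 89.1), with its summit 1848 bp into coding exon 1. The homeobox gene BLR had 3.38 (percentile 73.0, against 94.7 at S0, 93.5 at S2 and 30.1 at S8). KNAT2 and KNAT6, KNOX homeobox genes, both had 2.905, and neither had a peak at S8. The KNAT2 summit lay 5408 bp into the gene, in coding exon 4. WUS, CLV2, CLV3, STM, BP, PNF, ATH1 and ULT1 had no S4 peak, while STM had 2 at S0 and 2 at S2, and BP 1 at S2.

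Organ boundary and outgrowth genes had 4 of 18. LUG, a co-repressor that acts with AP2 against AG, had 3.66 with its summit in the 5′ UTR (percentile 82.0, against 62.3 at S0, 66.1 at S2 and 2.24 at S8). ANT, an AP2-type promoter of organ growth, had 3.51 over 1412 bp (percentile 77.6, against 57.2 at S0, 34.5 at S2 and 86.2 at S8). BOP2 had 2.385 in coding exon 1. NUB, a zinc finger gene of stamen and carpel growth, had 2 peaks, of 202 and 203 bp, and no peak at any other stage. One had a fold enrichment of 3.52 beyond the 3′ end of the gene, 1669 bp from its start, and the other 3.22 in the 3′ UTR, 1378 bp from its start, so neither lay where the mark usually sits. CUC1, CUC2, CUC3, PTL, RBE, BOP1, LOB, LAS, JAG, AIL6, AIL5, DRNL, DRN and SEU had no S4 peak, although AIL5 had one at S0 and SEU at S0 and S2.

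Organ polarity genes had 7 of 16 (43.75%, interval 23.1 to 66.8, which held the background of 32.1%). All 7 also had a peak at S2 and at S8, against 80.8% and 84.2% of all S4-marked genes. AS1, a MYB gene of adaxial fate, had 4.545 over 1612 bp (percentile 94.3). ETT and ARF4, auxin response factors of abaxial fate, had 3.20 over 1804 bp and 3.02 over 1033 bp. The HD-ZIP III genes PHB, PHV and REV had 2.94 over 1963 bp, 2.59 over 700 bp and 2.18 over 1650 bp, and KAN2 had 2.098 over 808 bp. PHV had another peak of 481 bp in intron 2. REV and KAN2 were at the bottom of the S4 list by fold enrichment (percentiles 1.56 and 0.582), and REV stood at 57.3, 59.6 and 67.4 at S0, S2 and S8. CNA, ATHB8, KAN1, FIL, YAB2, YAB3, YAB5, AS2 and INO had no S4 peak, although CNA had one at S0 and S2 and FIL at S8. In the stamen and carpel list 1 of 14 had an S4 peak (7.14%, interval 1.27 to 31.5, against the background of 32.1%). It was EMS1, a receptor kinase of tapetum fate, with 2.47 over 1435 bp (percentile 19.4). SPL, DYT1, AMS, MS1, TPD1, NGA1, NGA3, SPT, HEC1, HEC2, HEC3, IND and STY1 had none at S4. SPT had a peak at S2, and NGA1 at S8.

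**Figure D5:**
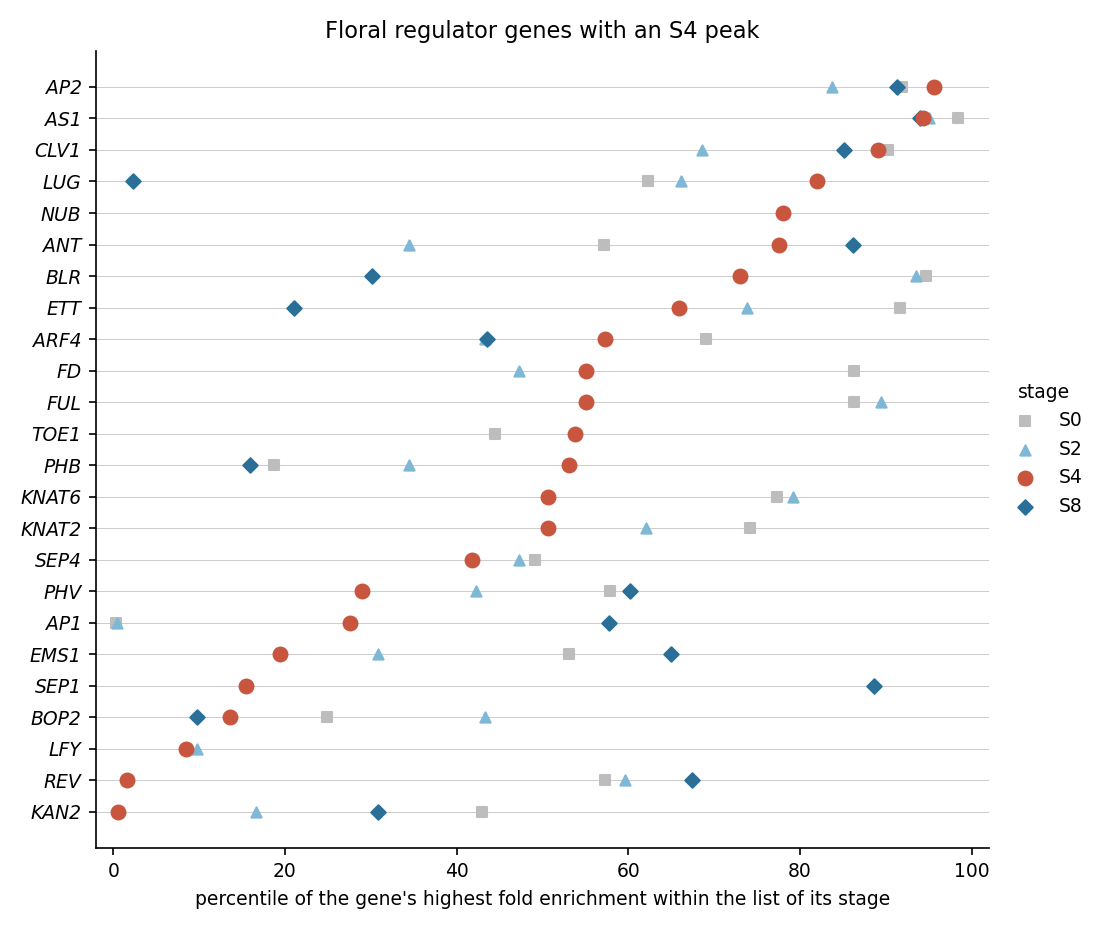
The 24 floral regulator genes with an S4 peak, ordered by the percentile of their highest fold enrichment in the S4 list (red circles), with their percentiles in the S0, S2 and S8 lists; a missing symbol means that the gene had no peak at that stage. AP2 is at percentile 95.6 and KAN2 at 0.582 at S4, and SEP1 and AP1 lie higher at S8 than at S4.

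Most of the S4 list was shared with the other stages. Of the 9114 peaks, 92.4% overlapped an S0 peak, 80.2% an S2 peak and 84.5% an S8 peak, and 73.3%, 86.4% and 83.8% of the peaks of those lists overlapped an S4 peak. The S0, S2 and S8 lists hold 11583, 8608 and 9235 peaks, so the first 3 shares follow the order of list size. Peaks overlapping no peak of another stage numbered 239 (2.62%, interval 2.31 to 2.97). They were narrow (median 505 bp, against 776 bp for the other S4 peaks) and low (median fold enrichment 2.45, against 2.91). The highest of them, 265 bp wide with a fold enrichment of 5.87, lay on AT5G24065, and next were the 2 peaks of NUB. The coding share of intragenic summits was 61.0% at S4, against 59.1% at S0, 64.8% at S2 and 62.6% at S8, and the median length of marked genes 2466 bp at S4, against 2492, 2449 and 2463 bp. With 1 pooled list per stage these differences have no replicate check.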

How the data were processed

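H3K27ac ChIP-seq libraries of 2 replicates per stage and 2 input libraries were processed by the authors, who per the labels and the study's methods aligned reads to TAIR10 with Bowtie 1.1.2, with 1 placement for a read that matched several sites, discarded duplicates with Picard 2.60, called peaks on pooled replicates with MACS2 2.1.0 and kept those reproducible between replicates. Placing such reads may lift signal in repeats. The authors deposited for each peak a score (the −log10 p times 10, rounded down), a fold enrichment (a ratio to the input at the summit), a −log10 p, a −log10 q and the summit position. Since the lists give neither replicate values nor depth, precision is given as 95% intervals over peaks or genes, and no test over samples could be made. Fold enrichment was used within a list only.

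Summits were placed on RefSeq gene models for TAIR10.1 (same chromosomes as TAIR10, newer models): first in protein-coding gene bodies, then within 1000 bp upstream, otherwise distal. Exons came from the transcript with the longest coding sequence. Genes were given peaks by the nearest gene start. Repeated sequence was a summit with at least 50% of 32-mers within 100 bases on each side found again in the genome. Lists overlap at 1 bp or more. Product classes were matched by words in the annotation, and all 103 listed genes matched it by symbol and locus.

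The genes named were those of the 20 highest fold enrichments, 5 widest and 5 highest −log10 p peaks outside repeated sequence, the first 5 noncoding genes, up to 2 per class, the extremes of width and distance, every gene of the lists and, chosen after their values were seen, the miRNA genes, RPS5A and AT5G15200, the repeat-rich AT5G30520 and stage-restricted AT5G24065. Members, lists and motifs were chosen with earlier results of these data known. Python 3.11.15, NumPy 2.4.6, pandas 2.3.3, SciPy 1.17.1 and matplotlib 3.10.9 were used, and placing, overlap and joining were tested on planted data or against bedtools 2.31.1. Alternatives were the midpoint, every transcript, gene bodies in place of the nearest start, stricter peak limits, other ranks, other overlaps and joining within 500 bp.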

Additional observations from a re-analysis of the deposited data

How the results depend on the processing

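Of 53 alternative values for 14 results, 16 stayed within 1.5 times a count or within the interval of a share or median, and 37 moved. Restricting the list to the 50% of S4 peaks with the highest −log10 p left 4448 marked genes and 12 floral regulators, with 96.3% of summits in gene bodies, 68.5% in coding exons, 21.9% in introns and 9.0% in 5′ UTRs, a median distance of 408 bp, a gene length of 2348 bp and a width of 874 bp. A −log10 q of at least 20 left 4668 genes, with 68.1%, 22.4% and 8.925% in coding exons, introns and 5′ UTRs. The midpoint gave 58.9%, 31.1% and 8.62%, and a distance of 464 bp. Taking every transcript gave 24.4% in introns and 13.8% in 5′ UTRs, with no background recomputed in that way. Gene bodies held 98.5% of summits with genes of every type, 97.4% (97.45) without repeated sequence and 97.3% after joining within 500 bp, which also gave a width of 788 bp. Marked genes were 2500 bp long when chosen by gene body, and 1726 bp in summed exons. By −log10 p the correlation with width was 0.457, and of the 20 genes with the highest fold enrichment 12 stayed in the first 20, and 4 when ranked by fold enrichment times width.

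With a reciprocal overlap of 50%, 86.2%, 76.2% and 80.8% of S4 peaks overlapped S0, S2 and S8 peaks. With the 50% of each list highest in −log10 p the shares were 80.5% (80.45), 69.4% and 74.5%, and with 5000 peaks of each list 72.3%, 72.9% and 74.5%. The order of S0, S8 and S2 thus does not hold in the last setting, in which all lists have the same size. The parts of the gene moved with peak height in the direction given above; the causes were not tested. No paired analysis was possible because each list is 1 call on pooled replicates, and for the same reason no replicate could be left out. Depth limits the list in a way that cannot be measured here.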
